A study of Mus with 6 samples.

Results

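The genes for the proteins of the cytosolic ribosome were examined in CD4+ T cells that had been activated while the growth factor VEGF-B was blocked. Members were taken by their symbols, which had to begin with Rpl or Rps and be followed by a number, or be Rplp0, Rplp1, Rplp2 or Rpsa. Of the 10995 protein-coding genes listed, 90 names matched. The 7 names beginning with Rps6k, which are kinases, were left out, and 0 names were lost for a mean under 1 FPKM (fragments scaled for transcript length and for the mapped fragments of the library). This left 83 genes, 49 with large subunit names and 34 with small subunit names. Of these, 77 encode standard subunits (46 large and 31 small). The other 6 are Rpl22l1, Rpl36al and Rps27l, which are paralogs of subunits, and Rpl7l1, Rps19bp1 and Rps27rt, whose names matched although they are an assembly factor, a binding protein and a retrotransposed copy.

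Naive CD4+ T cells from the spleen of WT mice were stimulated for 3 days with anti-CD3 at 5 μg/mL, anti-CD28 at 2 μg/mL and IL-2 at 100 U/mL. The cultures held either anti-VEGF-B, an antibody that neutralizes VEGF-B, or normal goat IgG as the control, both at 1 μg/mL. RNA-Seq was done on 3 libraries per antibody. Both groups therefore shared the activation and the IL-2, and no unstimulated cells were analysed here. The labels do not give the age of the mice or say whether libraries of a group came from separate mice or cultures, so that p-values measure only the spread between these libraries.

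The ribosome has a large subunit, which joins amino acids, and a small subunit, which reads the mRNA, and most of their proteins are present as a single copy in each ribosome. Their mRNAs are among the most abundant in growing cells and carry a terminal oligopyrimidine (TOP) motif, through which mTOR and LARP1 set how fast they are translated. T cells that leave rest make many ribosomes before they divide. No sequence of these genes was read here, so that their TOP motifs and promoters were not analysed here.

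The 6 libraries were similar in the sum of all FPKM, which ran from 260058 to 276622. The groups differed in how many genes were listed at 0, which was 59 to 91 with anti-VEGF-B and 36 or 37 with IgG, and in the median of the tested genes, which was 5.57 ± 0.122 and 6.56 ± 0.467 FPKM. The part of these differences in the results was not tested. In the CD4+ T cell marker list all 7 genes were present, with Cd4 at 70.0 ± 4.56 FPKM (anti-VEGF-B) against 68.4 ± 5.56 FPKM (IgG) (mean ± SD, n = 3 each, as throughout). Of these 7, Cd3e and Cd5 were lower with anti-VEGF-B (adjusted p = 0.0197 and 0.0343, limma with Benjamini-Hochberg adjustment), and 0 were higher. Over all tested genes 23.8% were lower and 4.87% higher, so that 2 of 7 is no result about these markers. The highest value of Cd8a was 0.182 FPKM, whereas Cd8b1 stood between 2.27 and 4.51 FPKM. Of the 3 myeloid markers chosen, Lyz2 stood at 16.4 FPKM in IgG replicate 3 against 3.26 to 4.19 in the other libraries, Csf1r stood at 1.57 there against 0.29 to 0.38, and Adgre1 was not analysed here. Markers of B cells, NK cells, erythroid cells and dendritic cells were not analysed here. The part of these markers in the results was not tested. In IgG replicate 3 the summed FPKM of the ribosomal protein genes lay between those of the other IgG libraries.

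Ribosomal protein mRNAs were a large part of all FPKM in every library. They took 28.9%, 27.2% and 29.3% of the total in anti-VEGF-B replicates 1 to 3, and 29.4%, 25.5% and 27.8% in IgG replicates 1 to 3. The groups overlapped, with the highest and the lowest value both among the IgG libraries. The means were 28.5 ± 1.08% and 27.6 ± 1.99%, a ratio of 1.03 that became 0.995 without IgG replicate 2. These cells are measured in bulk, so that fewer cells of a type and less RNA per cell cannot be told apart.

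**Figure D1:**
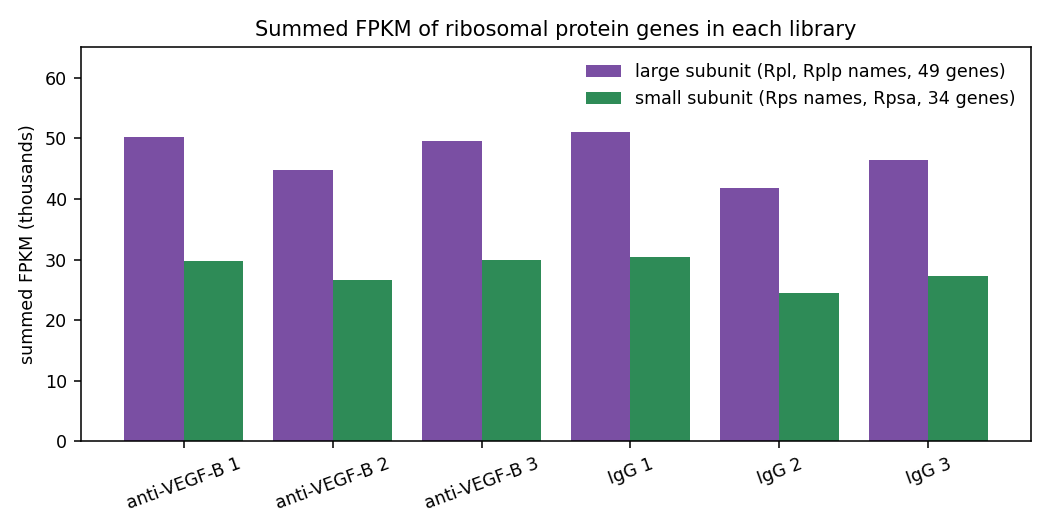
Bars give the FPKM summed over the 49 large subunit names and over the 34 small subunit names in each of the 6 libraries (the axis counts in units of 1000 FPKM). IgG replicate 2 is lowest and IgG replicate 1 highest for both sums, and the anti-VEGF-B libraries lie between them.

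The large subunit names summed to 50137, 44703 and 49599 FPKM with anti-VEGF-B and to 51080, 41842 and 46377 FPKM with IgG. The small subunit names summed to 29838, 26704 and 29926 FPKM with anti-VEGF-B and to 30345, 24427 and 27322 FPKM with IgG. Replicate 2 was the lowest of its group for both subunits. The large sum divided by the small sum was 1.680, 1.674 and 1.657 with anti-VEGF-B and 1.683, 1.713 and 1.697 with IgG. These ratios did not overlap, although they were close: the means were 1.67 ± 0.0118 and 1.70 ± 0.0148, and leaving out any 1 library kept the ratio of the means between 0.980 and 0.988.

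Gene by gene, the subunits themselves did not pass the test. Changes are given as log2 fold changes, anti-VEGF-B minus IgG, of log2(FPKM + 1), a scale on which low genes appear to change less than they do. limma was run on the 8816 genes averaging 1 FPKM or more. Of the 83 members, 2 were lower with anti-VEGF-B at an adjusted p under 0.05 (Benjamini-Hochberg over all genes tested), against 23.8% of all genes tested, and these were 1 of the large and 1 of the small subunit names. No member was higher (0 of 83, with 3 at an unadjusted p under 0.05), against 4.87% of all genes tested. Among the 77 standard subunits 0 were called in either direction by limma, with adjusted p from 0.0585 to 0.999, and at an unadjusted p under 0.05 1 was lower (Rps29) and 3 were higher (Rpl6, Rps9 and Rps2). With a replicate block 4 members were lower and 7 higher, against 23.9% and 5.32% of all genes tested.

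The standard errors behind these tests ran from 0.0843 to 0.209 on the log2 scale over the 77 standard subunits, with a median of 0.0984. Of the 77 log2 fold changes 75 lay within 0.25 of 0. The median SD within groups was 0.128 for the subunits. It was 0.0924 for 129 other genes at or above the members' 5th percentile of mean FPKM. Even Rpl6, with a log2 fold change of 0.24 and the lowest standard error, was not called. The 0 calls therefore do not show that the subunits were unchanged. The fold changes spread less among the large subunit genes (SD 0.0885 across 46 genes) than among the small subunit genes (SD 0.144 across 31 genes), as a description of these genes with no test.

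The median log2 fold change was 0.07 over the 83 members (0.06 for the 49 large and 0.07 for the 34 small subunit names), against -0.15 over all genes tested. Of the members 30.1% lay below 0, against 71.2% of all genes tested. The members were far more abundant than most genes. Their median level averaged 743 FPKM with anti-VEGF-B and 687 FPKM with IgG, against 5.57 and 6.56 FPKM over all genes tested. Among genes averaging at least 5 FPKM the median of all was -0.09, and the members stood 0.16 above it. The part of the level in this difference was not tested. The sign of the members' median depended on the scaling and on 1 library, as it was 0.30 when libraries were scaled to equal medians, -0.02 after quantile normalization, -0.04 after cyclic loess normalization and -0.01 without IgG replicate 2. Scaling to equal medians moved the median of all genes from -0.15 to 0.04, quantile normalization to 0.01 and cyclic loess to 0.00. Relative to those medians the members stood 0.22 above all genes without a scaling, 0.26 above with equal medians, -0.03 with quantile normalization and -0.04 with cyclic loess.

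**Figure D2:**
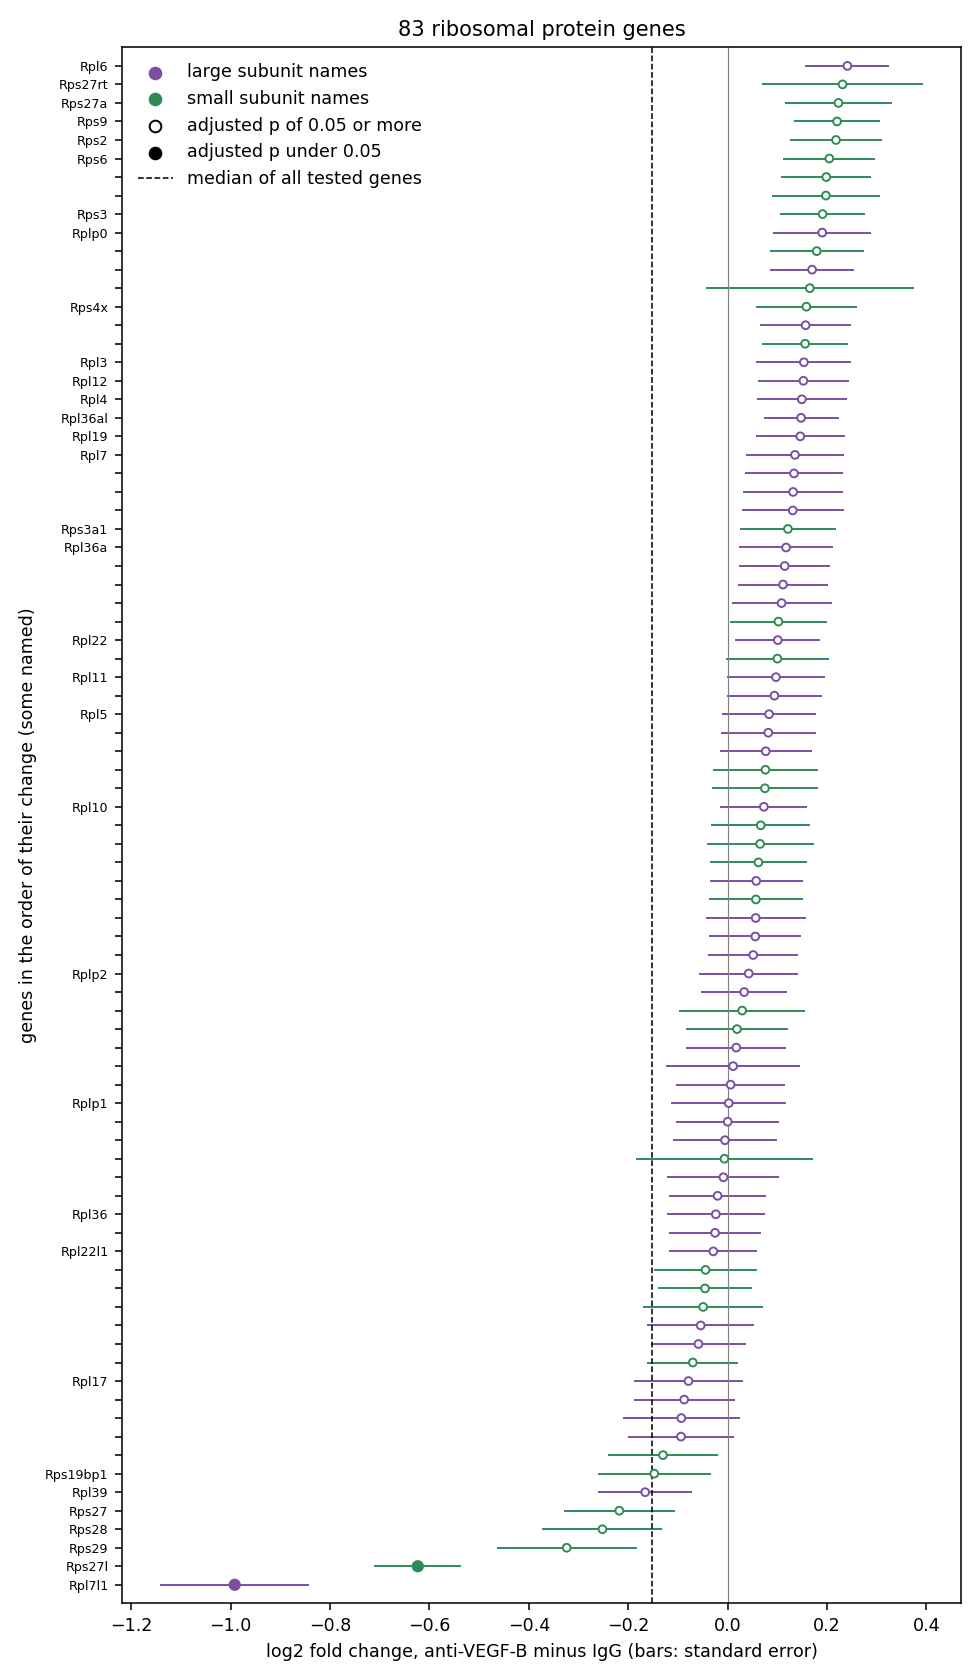
Points give the log2 fold change of each of the 83 genes between anti-VEGF-B and IgG without a scaling between libraries, bars give the standard error from limma, and filled points mark an adjusted p under 0.05, with some genes named on the axis. Only Rpl7l1 and Rps27l are filled, and most other points lie right of the dashed line at the median of all tested genes (-0.15). The members' median of 0.07 turns to -0.02 with quantile normalization, -0.04 with cyclic loess and -0.01 without IgG replicate 2.

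The larger fold change of the 2 called genes was that of Rpl7l1 (ENSMUSG00000063888.6, chr17:46773907-46782656, minus strand, GRCm38), whose product resembles the large subunit protein of Rpl7 and acts in assembly of the large subunit. Its level was 6.01, 5.63 and 5.75 FPKM with anti-VEGF-B and 10.2, 16.4 and 11.7 FPKM with IgG. Every anti-VEGF-B library lay below every IgG library, and the IgG libraries were far more spread. The level fell by 54.6% (5.79 ± 0.192 against 12.8 ± 3.28 FPKM), with a log2 fold change of -0.99 (SE 0.150, adjusted p = 0.00527, limma with Benjamini-Hochberg adjustment). It is the least abundant of the 83 genes, and it has a family member, Rpl7, of far higher level, so that reads shared between copies make its value less certain.

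The other call was Rps27l (ENSMUSG00000036781.13, chr9:66946086-66949516, plus strand), a paralog of Rps27 that is known as a target of p53. It stood at 56.5, 46.02 and 50.1 FPKM with anti-VEGF-B and at 77.8, 82.4 and 75.9 FPKM with IgG, so the groups did not overlap and were each narrow. The level fell by 35.3% (50.9 ± 5.31 against 78.7 ± 3.34 FPKM), with a log2 fold change of -0.62 (SE 0.0875, adjusted p = 0.00491, limma with Benjamini-Hochberg adjustment). Both genes were lower and past the threshold in every alternative but the test without moderation of the variance, where their adjusted p were 0.0748 and 0.0696 in limma. Each call held without any 1 library.

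The groups also did not overlap for Rps28, which was lower with anti-VEGF-B. In total 3 of 83 members (Rpl7l1, Rps27l and Rps28) had all anti-VEGF-B values below all IgG values, against 38.5% of all genes tested, and 4 (Rpl18, Rps3, Rps9 and Rpl6) had all of them above, against 10.5%. Rps28 stood at 255, 245 and 251 FPKM with anti-VEGF-B and at 367, 256 and 283 FPKM with IgG, so that the groups nearly touched, and its log2 fold change of -0.25 missed the threshold (SE 0.121, adjusted p = 0.140, limma).

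Because called genes were few, the 5 most negative and 5 most positive log2 fold changes are given although only Rpl7l1 and Rps27l passed the test. After those came Rps29, Rps28 and Rps27, all in the small subunit. Rps29 stood at 825, 715 and 805 FPKM with anti-VEGF-B and at 1234, 822 and 919 FPKM with IgG, with a log2 fold change of -0.32 (SE 0.141, adjusted p = 0.110, limma). IgG replicate 1 was the highest by far, and the groups overlapped only through 825 against 822 FPKM. The log2 fold change was -0.16 without IgG replicate 1 (adjusted p = 0.236, limma) and -0.45 without IgG replicate 2, where Rps29 was called lower (adjusted p = 0.0493). Rps27, which binds zinc, stood at 1013, 827.5 and 1027 FPKM with anti-VEGF-B and at 1220, 1000 and 1110 FPKM with IgG, and its groups overlapped (log2 fold change -0.22, adjusted p = 0.162, limma).

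At the positive end stood Rpl6, Rps27rt, Rps27a, Rps9 and Rps2. Rpl6, a large subunit protein, was measured at 755, 712 and 765 FPKM with anti-VEGF-B and at 682, 578 and 631 FPKM with IgG, with no overlap. Its log2 fold change was 0.24 (SE 0.0843), and its adjusted p of 0.0585 in limma was the lowest of any standard subunit. Rps9 was measured at 771, 760 and 771 FPKM with anti-VEGF-B and at 718, 595 and 668 FPKM with IgG (log2 fold change 0.22, adjusted p = 0.0812, limma). In both genes IgG replicate 2 was lowest, as it was for most subunits.

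Rps2, a protein near the mRNA entry of the small subunit, stood at 1002, 937 and 1034 FPKM with anti-VEGF-B and at 946, 772 and 845 FPKM with IgG. Rps27a encodes a fusion of ubiquitin with a small subunit protein, and stood at 809, 752 and 820 FPKM with anti-VEGF-B and at 715, 576 and 761 FPKM with IgG. Both genes overlapped between the groups, with log2 fold changes of 0.22 and adjusted p of 0.105 and 0.143 (limma). Without IgG replicate 1, 5 members were called higher, Rpl18, Rpl6, Rps2 and Rps9 among them, and without anti-VEGF-B replicate 2, Rps25 and Rps27rt were. Over all genes tested 4.49% and 3.24% were higher in these fits.

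Most of the spread of the subunit genes lay between libraries of the same group. IgG replicate 2 held the lowest of the 6 values for 61 of the 77 standard subunits, and anti-VEGF-B replicate 2 held it for the other 16. The highest value was in IgG replicate 1 for 43 genes, in anti-VEGF-B replicate 3 for 18 and in anti-VEGF-B replicate 1 for 16. Within the groups, replicate 2 was lowest for 75 genes with anti-VEGF-B and for 76 with IgG. The subunits thus moved up and down together from library to library, whichever antibody was present.

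This common movement was measured by the correlation of each subunit's deviations from its group means with the mean deviation of the other subunits, over the 6 libraries. The correlations share libraries and are a description only. Their median was 0.968, and 62 of the 77 genes were above 0.9. Once the summed FPKM of the members was made equal in all libraries, the median within-group SD of the subunits dropped from 0.128 to 0.0368 on the log2 scale. This step takes out by construction what the members share, so that the drop restates their common movement and is no further evidence of it.

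A few subunits did not share it. Rps25, a small subunit protein used in initiation from internal ribosome entry sites, had the lowest correlation (0.359). It stood at 348, 192 and 350 FPKM with anti-VEGF-B and at 259, 285 and 224 FPKM with IgG, so that its IgG libraries were in another order than those of most subunits and its anti-VEGF-B libraries were the most spread. Its log2 fold change was 0.17 with the largest standard error among subunits (0.209; adjusted p = 0.568, limma). Low correlations were also those of Rps15a (0.598) and Rpl10 (0.698). Subunit genes with near-identical pseudogenes are many, and how reads were split between copies is not stated, so that single values carry this uncertainty.

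**Figure D3:**
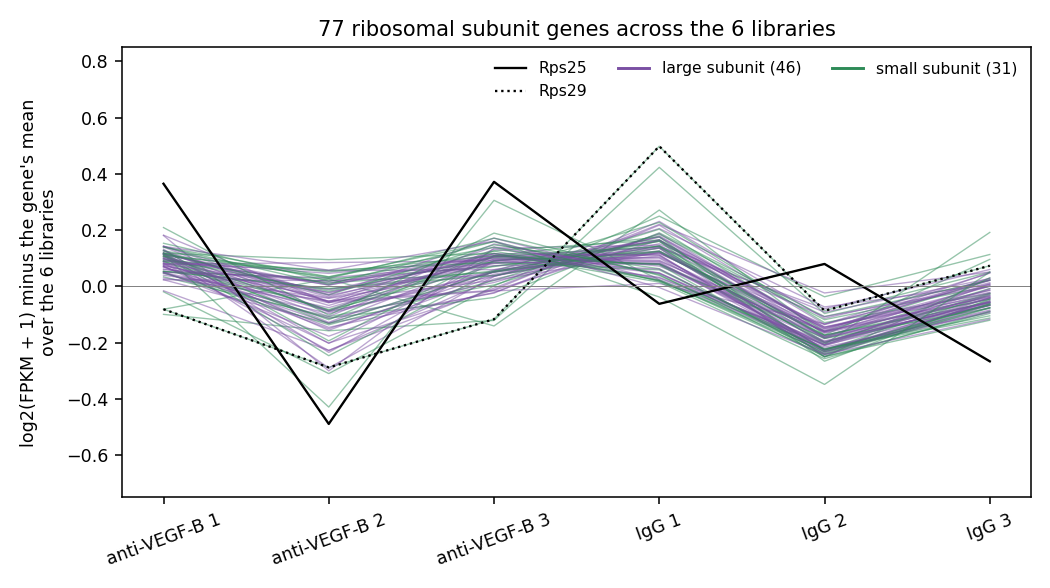
Each line is one of the 77 standard subunits, drawn as log2(FPKM + 1) minus its mean over the 6 libraries, with purple for the large and green for the small subunit. Most lines dip at replicate 2 of both groups, IgG replicate 2 being the lowest for 61 genes, while Rps25 (solid black) leaves the bundle and Rps29 (dotted black) is highest in IgG replicate 1.

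With that common movement taken out, some subunits stood apart within the set. In this alternative, which was added after seeing the data, each library was scaled to the same summed FPKM of the 83 members and the fit over all genes was repeated, so that a change is relative to the set. Then 8 members were lower, against 15.3% of all genes tested, namely Rpl17, Rpl39, Rpl41, Rpl7l1, Rps27, Rps27l, Rps28 and Rps29, and 4 were higher, against 1.77%, namely Rpl6, Rplp0, Rps2 and Rps6. The share of members called lower (9.64%) lay under that of all genes and the share called higher (4.82%) above it. This contrast is set in part by the scaling, which brought the members' median to 0.00 and that of all genes to -0.21. It is therefore no result about the members. The scaling also takes out spread that the members share, so that the standard error of Rps29 went from 0.141 to 0.0607. The adjusted p below carry this. The 8 lower genes were 4 of the large and 4 of the small subunit names.

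Rps29 made up 1.03%, 1.00% and 1.01% of the members' sum with anti-VEGF-B and 1.51%, 1.24% and 1.25% with IgG (log2 fold change -0.39, adjusted p = 6.93e-05, limma on the scaled values). Rps27 made up 1.27%, 1.16% and 1.29% with anti-VEGF-B and 1.499%, 1.509% and 1.506% with IgG (log2 fold change -0.28, adjusted p = 0.000339). In both genes the groups were apart. The IgG libraries were nearly equal for Rps27, whereas IgG replicate 1 stood above the others for Rps29. Rpl39, a very small protein of the exit tunnel, made up 0.728%, 0.704% and 0.737% against 0.842%, 0.874% and 0.827% (log2 fold change -0.23, adjusted p = 0.00952).

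In the other direction, Rps6, the protein phosphorylated by S6 kinases, made up 2.33%, 2.38% and 2.38% of the sum with anti-VEGF-B and 2.11%, 2.19% and 2.14% with IgG (log2 fold change 0.14, adjusted p = 0.0125, limma). Rpl6 made up 0.944%, 0.997% and 0.962% against 0.838%, 0.873% and 0.856% (log2 fold change 0.18, adjusted p = 0.0301). These differences are fractions of a log2 unit and rest on groups that did not overlap. Quantile normalization also called Rps27, Rps28, Rps29, Rpl17, Rpl39 and Rpl41 lower, among 13 members, and called 0 members higher (4 at an unadjusted p under 0.05). Over all genes tested it called 10.4% lower and 9.98% higher.

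By role, the 4 proteins of the stalk (Rplp0, Rplp1, Rplp2 and Rpl12), which recruits elongation factors to the large subunit, had 0 called in either direction and a median log2 fold change of 0.10. Rplp0, the base of the stalk, averaged 2925 ± 216 FPKM with anti-VEGF-B against 2564 ± 212 FPKM with IgG (log2 fold change 0.19, adjusted p = 0.169, limma). For Rpl12 the log2 fold change was 0.15 (adjusted p = 0.221) and Rplp2 of 0.04 (adjusted p = 0.764). Rplp1 was the most abundant member, at 3339 ± 310 and 3340 ± 397 FPKM, with a log2 fold change of 0.00 (adjusted p = 0.991, limma) that became -0.16 and was called with cyclic loess (adjusted p = 0.0141).

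Rpl5 and Rpl11 join 5S rRNA in a particle that also binds MDM2, the inhibitor of p53. Neither passed the test. Rpl5 was at 755 ± 66.2 and 712 ± 56.98 FPKM (log2 fold change 0.08, adjusted p = 0.523) and Rpl11 at 452 ± 19.8 and 424 ± 53.8 FPKM (log2 fold change 0.10, adjusted p = 0.470, limma). Among 11 proteins with known roles outside the ribosome 1 was lower (Rps27l) and 0 higher, with a median of 0.08. In that list Rps3, which also acts in DNA repair, changed by 0.19 on the log2 scale (adjusted p = 0.119) and Rps6 by 0.20 (adjusted p = 0.121, limma).

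The exit tunnel list, around the channel where the nascent chain leaves, had 9 genes and 0 called, with a median of 0.08. Its lowest p values were those of Rpl39, with a log2 fold change of -0.17 (adjusted p = 0.206), Rpl4, at 0.15 (adjusted p = 0.230), and Rpl19, at 0.15 (adjusted p = 0.232, limma). The head of the small subunit had 14 genes and 0 called, with a median of 0.08. Rps29 and Rps28 were the most negative of them and Rps27a the most positive, whose values are given above.

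Levels of the standard subunits, which FPKM expresses per length, differed by 15.9-fold between the highest and the lowest mean. The 5 highest means were those of Rplp1 (3339 FPKM), Rpl17 (3067), Rplp0 (2744), Rps3a1 (2729) and Rpl36 (2689). The 5 lowest of all members were those of Rpl7l1 (9.28 FPKM), Rps19bp1 (14.4), Rps27l (64.8), Rps27rt (100.2) and Rpl22l1 (203), all from the 6 names outside the standard subunits. The median of the subunit means was 722 FPKM for the large and 849 FPKM for the small subunit. Across the 77 subunits the log2 level and the log2 fold change had r = 0.144 and a rank rho of 0.155, over genes that are not independent of each other.

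Paralogs can replace a subunit in some ribosomes, so each pair was compared within a library. Rpl7l1, an assembly factor, and Rps27rt, a retrotransposed copy, were compared in the same way, but their ratios do not describe the make-up of ribosomes. Of the 16 genes in the paralog list 12 were tested, 2 were lower and 0 higher, while Rpl3l, Rpl10l, Rpl39l and Rps4l were not analysed here. Rps27l was 0.0558, 0.0556 and 0.0487 of the FPKM of Rps27 with anti-VEGF-B and 0.0638, 0.0824 and 0.0683 with IgG. All ratios were lower with anti-VEGF-B (0.0534 ± 0.00405 against 0.0715 ± 0.00969, two-sided exact permutation test of the log2 ratio, p = 0.1, the smallest that 3 against 3 allows). Rpl7l1 was 0.00766 ± 0.000570 of Rpl7 with anti-VEGF-B and 0.0189 ± 0.00666 with IgG (exact permutation p = 0.1), with no overlap.

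Rpl22l1, whose product takes the place of Rpl22 where the latter is missing, was closer to its partner in level than the other paralogs measured. It stood at 208, 186 and 208 FPKM with anti-VEGF-B and at 227, 189.5 and 199 FPKM with IgG. Rpl22, needed for the development of T cells, stood at 248, 240 and 250 FPKM with anti-VEGF-B and at 252, 206 and 233 FPKM with IgG. Neither gene passed the test (log2 fold changes -0.03 and 0.10, adjusted p = 0.822 and 0.386, limma), and each overlapped between groups. Their ratio was 0.841, 0.774 and 0.832 with anti-VEGF-B and 0.903, 0.922 and 0.853 with IgG, with no overlap (log2 difference -0.13, exact permutation p = 0.1).

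Rpl36al and Rpl36a, which encode nearly the same protein, gave a ratio of 0.750 ± 0.0251 with anti-VEGF-B and 0.735 ± 0.0609 with IgG, which overlapped (exact permutation p = 0.7). Their log2 fold changes were 0.15 and 0.12 (adjusted p = 0.162 and 0.365, limma). Rps27rt, the intronless copy of Rps27, moved against Rps27l: its ratio to Rps27 was 0.113 ± 0.0125 and 0.0823 ± 0.00377 (exact permutation p = 0.1), although its own level of 124, 81.7 and 121 FPKM against 105, 78.7 and 90.9 FPKM overlapped. Over the 5 ratios tested, the lowest adjusted value was 0.125 (Benjamini-Hochberg on the exact permutation p). The remaining partners, Rpl3 (log2 fold change 0.15), Rpl7 (0.14), Rpl10 (0.07) and Rps4x (0.16), did not pass the test, with adjusted p from 0.242 to 0.544 in limma.

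**Figure D4:**
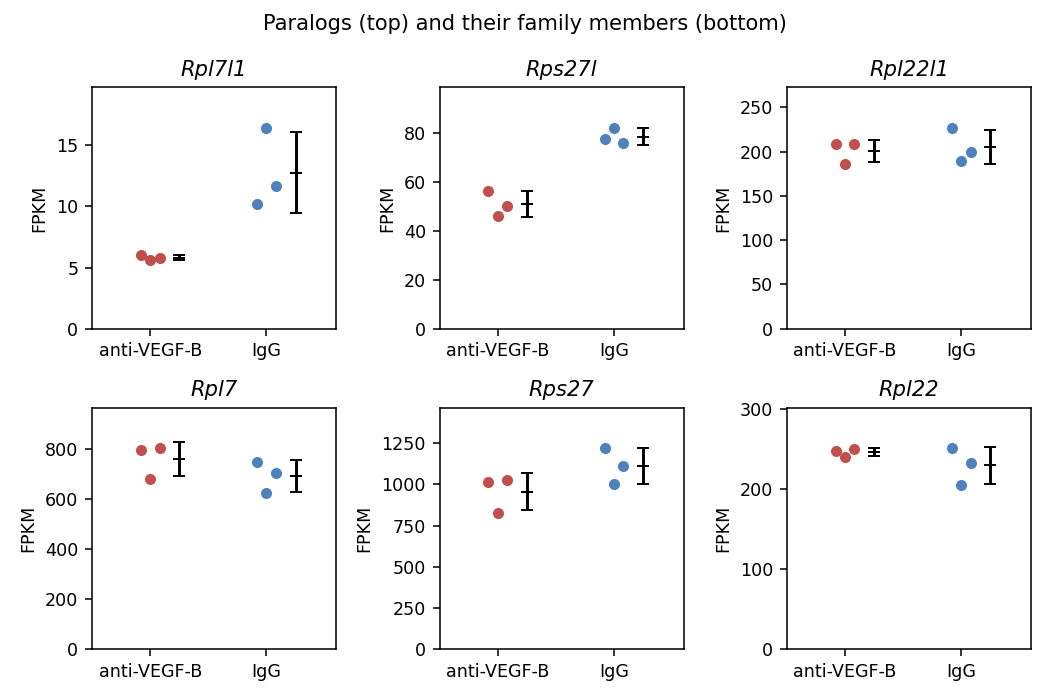
Dots give the FPKM of each library for the assembly factor gene Rpl7l1 and the paralogs Rps27l and Rpl22l1 (top) and for the subunit each resembles (bottom). Bars give the mean and SD (n = 3), each panel on its own axis from 0. Rpl7l1 and Rps27l lie lower with anti-VEGF-B without overlap, whereas Rpl22l1, Rpl7, Rps27 and Rpl22 overlap.

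The members lie on 19 chromosomes, with 4 on the X chromosome (Rps4x, Rpl10, Rpl36a and Rpl39), and 0 of these 4 was called (adjusted p from 0.206 to 0.544, limma). A few are neighbours. Rpl41 and Rps26 lie 75228 bases apart on chromosome 10, with log2 fold changes of -0.09 and -0.05. Rps29 and Rpl36al lie 23544 bases apart on chromosome 12 and had log2 fold changes of -0.32 and 0.15.

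Other parts of the same pathway were counted next to the ribosomal proteins. Of 22 other genes whose mRNAs carry TOP motifs, mostly translation factors, 0 were lower and 1 was higher, with a median log2 fold change of 0.12, against 23.8% lower, 4.87% higher and a median of -0.15 over all genes tested. The one was Eif3e, an initiation factor subunit, at 74.6 ± 3.39 and 62.8 ± 4.13 FPKM (log2 fold change 0.25, SE 0.0768, adjusted p = 0.0409, limma). The call was lost when either replicate 1 or replicate 3 of anti-VEGF-B, or either replicate 2 or replicate 3 of IgG, was left out, with adjusted p from 0.0919 to 0.134 in limma. The ribosomal protein genes Fau and Rack1 fall outside the naming rule and are in this list. Their log2 fold changes were 0.19 and 0.23, with adjusted p of 0.161 and 0.179 in limma, so that neither passed.

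Genes of ribosome assembly were counted in the same way. Of 30 tested, 16 were lower with anti-VEGF-B and 0 higher, with a median log2 fold change of -0.35, against 23.8% lower, 4.87% higher and a median of -0.15 over all genes tested. Among the 16, Polr1b, Heatr3 and Grwd1 averaged under 1 FPKM with anti-VEGF-B (0.736, 0.923 and 0.832). They passed the filter only through IgG (1.39, 1.67 and 1.78 FPKM), so that these calls lean on the filter. The difference from the ribosomal proteins was not tested. Tsr1, a GTPase-like factor of the small subunit, stood at 2.03 ± 0.309 FPKM with the antibody against 5.12 ± 1.15 FPKM in the control and fell by 1.002 on the log2 scale (SE 0.145, adjusted p = 0.00499, limma). The RNA helicase gene Ddx21 fell by 0.55 on that scale (adjusted p = 0.00511), and Nop56, of the box C/D particles that modify rRNA, fell by 0.66 (adjusted p = 0.00717). Nop2, an rRNA methyltransferase, fell by 0.57 (adjusted p = 0.00984, limma). When anti-VEGF-B replicate 3 was left out 7 were lower, and when IgG replicate 2 was left out 10 were. There were 8 with quantile, median or cyclic loess scaling, of which scaling to equal medians also gave 1 higher, and 1 without moderation. The median stayed below 0 in every alternative, from -0.43 to -0.16.

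Of 18 tested regulators of mTOR and TOP mRNAs, 4 were lower and 0 higher, with a median log2 fold change of -0.19. The share called lower was near the 23.8% of all genes tested, and so is no result about these genes. They were Mtor (log2 fold change -0.47, adjusted p = 0.0136), Eif4ebp2, an inhibitor of cap-dependent initiation (-0.46, adjusted p = 0.0165), Rheb, the activator of mTOR (-0.41, adjusted p = 0.0249), and Mlst8, a subunit of both mTOR complexes (-0.30, adjusted p = 0.0493, limma). None of these 4 calls held without anti-VEGF-B replicate 3. Scaling to equal medians gave 1 lower and 2 higher with a median of -0.02, against 10.4% lower and 16.1% higher of all genes tested. For Larp1, which binds the TOP motif, the log2 fold change was -0.09 (adjusted p = 0.542), and Myc, which drives transcription of ribosome genes, of -0.46 (adjusted p = 0.0581, limma).

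The 77 tested mitochondrial ribosomal protein genes, which serve a separate ribosome, had 6 lower and 2 higher, against 23.8% and 4.87% of all genes tested, with a median log2 fold change of -0.08 that turned to 0.12 with scaling to equal medians, 0.10 with quantile normalization and 0.09 with cyclic loess. The cytosolic members, with 2 lower and 0 higher of 83 and a median of 0.07, thus had a median of the other sign without a scaling, and this difference was not tested. With quantile normalization and cyclic loess 13 and 15 cytosolic members were lower, against 10.4% and 10.6% of all genes tested. Under quantile normalization and cyclic loess both signs turned, with cytosolic medians of -0.02 and -0.04, and the cytosolic median was -0.01 without IgG replicate 2.

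**Figure D5:**
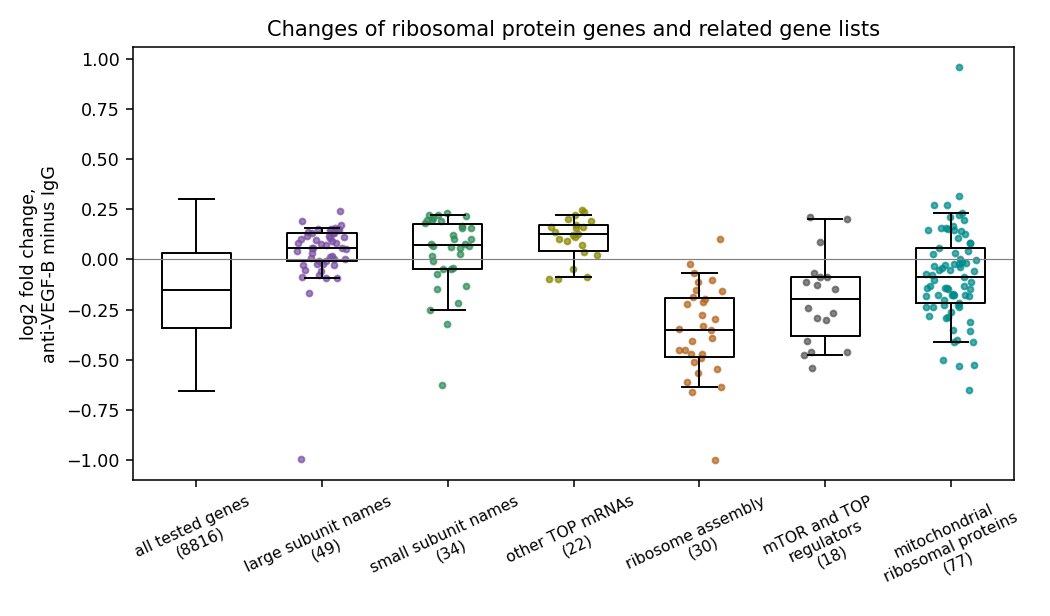
Boxes give the median and quartiles, and whiskers the 5th and 95th percentiles, of the log2 fold changes between anti-VEGF-B and IgG without a scaling between libraries, with a dot for each gene except for all tested genes. Large and small subunit names and other TOP mRNAs have medians above 0 (0.06, 0.07 and 0.12), and assembly genes (-0.35), regulators (-0.19) and mitochondrial ribosomal proteins (-0.08) have medians below 0. Without IgG replicate 2 the medians of the large and small subunit names were -0.01, with quantile normalization they were -0.03 and -0.02, and the mitochondrial median then was 0.10.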

How the data were processed

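The deposited table gives FPKM for 10995 protein-coding genes in 6 libraries. The authors made stranded libraries, aligned the reads with hisat2 to the mouse genome (GRCm38) and quantified transcripts with StringTie and Ballgown. The values hold decimals and were taken to be FPKM, which carry no depth. Low values (under 0.3 FPKM) gave no common step, since at most 0.935% of genes shared a ratio between libraries, so whole reads were not recovered and the counting error is unknown.

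The fit on log2(FPKM + 1) used limma 3.58.1 (empirical Bayes with trend, R 4.3.3) without a covariate, over 8816 genes averaging 1 FPKM or more. The threshold was 0.05 on p adjusted by Benjamini-Hochberg across those genes. Single ratios used the exact permutation test. The method was tested on simulated data.

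Members and lists were chosen with earlier results of these data known, and the lists were written by hand. Named were every paralog pair, the 3 genes of lowest p in each role list, the 5 highest and 5 lowest levels, the 5 most positive and 5 most negative changes, the 4 genes of lowest p in each other list, and Fau, Rack1, Larp1 and Myc. A few results on single genes are not reported here. Genes named beyond that were chosen after their values were seen.

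Alternatives were quantile normalization, scaling to equal medians or to a total of 1e+06, a pseudocount of 0.1, a mean of at least 5 FPKM, no filter, no moderation, a replicate block, each library left out, and the members without the 3 names that are not subunits. Cyclic loess and scaling to the summed members were added after seeing the data.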

Additional observations from a re-analysis of the deposited data

How the results depend on the processing

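The count of members called lower (2) was 13 with quantile normalization, 15 with cyclic loess and 8 when scaled to the summed members. Over all genes tested 10.4%, 10.6% and 15.3% were lower in these settings, against 23.8% in the main fit. With quantile normalization and cyclic loess the members' share was thus above that of all genes, and in the main fit under it. The count was 0 without moderation (0.0681% of all genes) and 1 without the matched names that are not subunits. The count called higher (0) was 4 with scaling to equal medians, 3 when scaled to a total of 1e+06 and 4 when scaled to the summed members. Over all genes tested 16.1%, 3.96% and 1.77% were higher in these settings. Leaving out each library in turn gave 2 to 3 lower and 0 to 5 higher, against 7.88% to 23.5% and 1.86% to 4.49% of all genes tested. With scaling to equal medians the median log2 fold change was 0.301 over the members, 0.291 over the large and 0.305 over the small subunit names. With a replicate block 4 members were lower and 7 higher, against 23.9% and 5.32% of all genes tested. The labels do not say whether the numbers pair the libraries. The correlations of deviations between libraries of the same number were -0.03, 0.11 and 0.09. Those between other numbers ran from -0.17 to 0.10, and not every library correlated best with its own number. With 3 libraries a group these correlations cannot decide whether the libraries are paired. Replicate 2 was the lowest of its group for 75 subunits with anti-VEGF-B and 76 with IgG.

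Of 780 combinations of a named gene and an alternative, 684 kept their side of the threshold (33 of these changed sign while not called), 44 lost and 51 gained the call, and 1 reversed, Rplp1 with cyclic loess (-0.16). The cause was not tested. Depth is unknown, 3 libraries a group limit every test, and similar gene copies could exchange reads.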

Other observations

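The 7 S6 kinase genes that were left out by name encode kinases, of which the Rps6kb pair acts on the small subunit protein of Rps6. Rps6ka5 (MSK1) was lower with anti-VEGF-B, at 0.932, 0.862 and 1.09 FPKM against 1.25, 1.63 and 1.58 FPKM with IgG (log2 fold change -0.34, SE 0.107, adjusted p = 0.0415, limma with Benjamini-Hochberg adjustment). Its mean was 0.961 FPKM with anti-VEGF-B and 1.49 FPKM with IgG, so that it passed the filter of 1 FPKM only through IgG. It was the only call among the 7, against 23.8% of all genes tested called lower, and so is no result about these kinases. Rps6kb1, the S6 kinase downstream of mTOR, stood at 5.25, 4.86 and 5.43 FPKM against 6.07, 7.19 and 6.08 FPKM without overlap, and did not pass the test (log2 fold change -0.27, adjusted p = 0.0721). Rps6ka4 (MSK2) stood at 10.1, 12.4 and 11.5 FPKM against 9.23, 10.1 and 9.48 FPKM, above IgG in every library, and also did not pass (log2 fold change 0.22, adjusted p = 0.112, limma).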
